A study of Mus musculus with 12 samples.

Results

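DNA replication genes were followed in mouse embryonic fibroblasts (MEFs, primary cells cultured from mouse embryos) 24 h after DNA damage. The 53 genes form a list fixed by name: the origin recognition complex, licensing and MCM helicase genes, helicase activators, replicative polymerases, clamp and clamp loader, single-strand binding proteins, Okazaki fragment enzymes, E2F transcription factors and Uhrf1. Of the 53, 52 were found among the 16425 genes of the deposited table, and all 52 passed the filter of at least 0.5 CPM (read counts after the authors' scaling for library size) in at least 3 libraries, as did 14440 genes in all. The RNA of E2f2 was not analysed here. The table writes symbols in capitals (MCM6, PCNA, E2F1), given below in mouse style. The list is made of names and uses no value or threshold of this table, but it was chosen with earlier results of these data known.

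The cells were wild-type MEFs that had been infected earlier with 1 of 2 guide RNAs. The control guide, sgTom, has no target, and the other guide, sgPVT1, is directed at the p53 response element of Pvt1, a long noncoding RNA gene next to Myc. All 6 libraries came from cells kept for 24 h in 0.5 µM doxorubicin, a topoisomerase poison that damages DNA and activates p53, with 3 biological replicates per guide. Whether the infected cells were clones or pools, and how replicates were matched across guides, is not given in the sources used here. The 6 untreated libraries of the series were not analysed here, so no value below measures the response to doxorubicin.

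Chromosomes are copied from origins that are marked by the origin recognition complex and loaded with the Mcm2 to Mcm7 helicase by Cdc6 and Cdt1 before S phase. The kinase Cdc7 with Dbf4, together with Cdc45 and GINS, then turns the loaded helicase into a moving fork, where polymerases, the sliding clamp Pcna and the single-strand binding protein RPA work together. Many of these genes are transcribed through E2F factors at the start of S phase, and p53 activation is known to lower them in fibroblasts through p21 (Cdkn1a), the retinoblastoma family and the DREAM repressor complex.

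E2F factors bind short DNA words, and these were looked for in the promoters. The list was fixed by name and not by sequence. Many of its genes are known to be transcribed through E2F factors, so the words are not independent of the list. The 4 words, of 8 letters each, were searched on both strands: TTTCCCGC, TTTCGCGC, TTTGCCGC and TTTGGCGC, from 250 bases before to 50 bases after the RefSeq start site (GRCm38.p6). Of the 43 members with a promoter entry, 19 (44.2%) held at least 1 word, against 4.43% of the 10504 tested genes and 2.60% of all 27025 genes with an entry. The 25 matches lay upstream of the start in 15 cases and after it in 10, and no match of TTTGCCGC was found in these windows. Overlapping matches on opposite strands were counted separately. The windows below show matches upstream of the annotated gene for an origin recognition gene, helicase subunits, polymerase alpha and an E2F factor, with the word in capitals, 5′ to 3′ along the gene's strand. In Mcm6, whose RNA differed between replicates, words began at −110, −106 (on the other strand, overlapping the first) and −47 from the start site.
Mcm6, chr1:128359782-128359841, minus strand: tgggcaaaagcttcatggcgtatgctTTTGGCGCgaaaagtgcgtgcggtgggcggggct
Mcm6, chr1:128359719-128359778, minus strand: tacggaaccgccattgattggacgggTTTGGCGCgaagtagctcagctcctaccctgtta
Mcm5, chr8:75109330-75109389, plus strand: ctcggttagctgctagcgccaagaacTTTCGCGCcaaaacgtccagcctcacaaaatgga
Orc3, chr4:34614950-34615009, minus strand: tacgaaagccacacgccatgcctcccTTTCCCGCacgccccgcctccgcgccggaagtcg
Pola1, chrX:93632260-93632319, minus strand: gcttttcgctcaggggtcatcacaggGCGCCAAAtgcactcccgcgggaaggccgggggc
E2f7, chr10:110745215-110745274, plus strand: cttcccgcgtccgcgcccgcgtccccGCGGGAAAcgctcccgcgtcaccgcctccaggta
A match is a stretch of letters and not a measured binding site. The other members with a word were Orc1, Cdc6, Cdt1, Mcm3, Mcm7, Gins3, Pold1, Pold3, Pole2, Rfc3, Lig1, E2f2, E2f3 and Uhrf1. The CHR words TTTGAA and TTCGAA, used by the MuvB core of DREAM, were present in 12 of 43 members (27.9%), against 16.12% of tested genes. The CCAAT word was present in 26 of 43 (60.5%), against 42.72% of tested genes. The E-box CACGTG, the word bound by Myc and Max, was present in 7 of 43 (16.3%), against 11.55% of tested genes, namely in Orc4, Pola2, Rfc1, Rpa1, Fen1, Lig1 and E2f3.

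The libraries held 50091418 to 66132317 reads in genes. Pvt1 lay at 16.4, 11.7 and 12.1 CPM with sgTom and at 8.04, 5.93 and 5.40 CPM with sgPVT1, groups that did not overlap, and Myc at 28.7, 27.0 and 35.6 against 43.5, 48.6 and 53.8 CPM. Neither passed limma without a block (adjusted p = 1.0 for each), and both passed with replicate number as a block (adjusted p = 1.4e-04 and 5.49e-04). The block in edgeR called both (adjusted p = 9.65e-04 and 0.00161), limma with the block but without trend called neither, and DESeq2 without a block called Pvt1 (adjusted p = 0.0276) and not Myc (adjusted p = 0.0551). Cdkn1a, the p53 target that inhibits cyclin-dependent kinases, ranged from 1226 to 1483 CPM with sgTom and from 1234 to 1564 CPM with sgPVT1. Summed fibroblast markers (12 of 12 measured) ranged from 38860 to 39430 CPM with sgTom and from 37740 to 38750 CPM with sgPVT1. Fn1 and Col1a1 made up most of these sums, which hide differences in single markers. Of the 12, 5 were higher and 7 lower with sgPVT1, none called. Pdgfra averaged 36.3 against 30.4 CPM, in groups that did not overlap (background 1.47%, blocked limma adjusted p = 0.538). By replicate number, Lum averaged 21.7, 7.55 and 4.78 CPM and Thy1 206.3, 409.6 and 390.1 CPM. Summed macrophage markers (13 of 14 measured) were 217.5, 109.7 and 127.9 CPM with sgTom and 342.8, 102.6 and 130.0 CPM with sgPVT1, so both replicate 1 libraries stood above the others. Endothelial and epithelial markers were measured for 4 of 6 and 5 of 6 genes, with sums of 49.6 to 72.9 and 54.5 to 99.4 CPM, of which Kdr and Krt19 made up most; Pecam1, Emcn, Epcam, Cdh1 and Krt5 averaged below 1 CPM.

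Replication and E2F genes spanned 2 orders of magnitude in the treated cells. Their mean over the 6 libraries ranged from 0.562 CPM for Cdc6 to 58.2 CPM for E2f6, with a median of 7.19 CPM against 19.1 CPM over all tested genes. Means below 1 CPM were found for Cdc6, Mcm10, Gins1 and Pole2, and 19 of 52 lay below 5 CPM. The 52 genes together held 707.9 to 738.3 CPM with sgTom and 694.4 to 729.5 CPM with sgPVT1. In bulk RNA, the share of cells in S phase and the RNA per cell cannot be told apart.

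**Figure D1:**
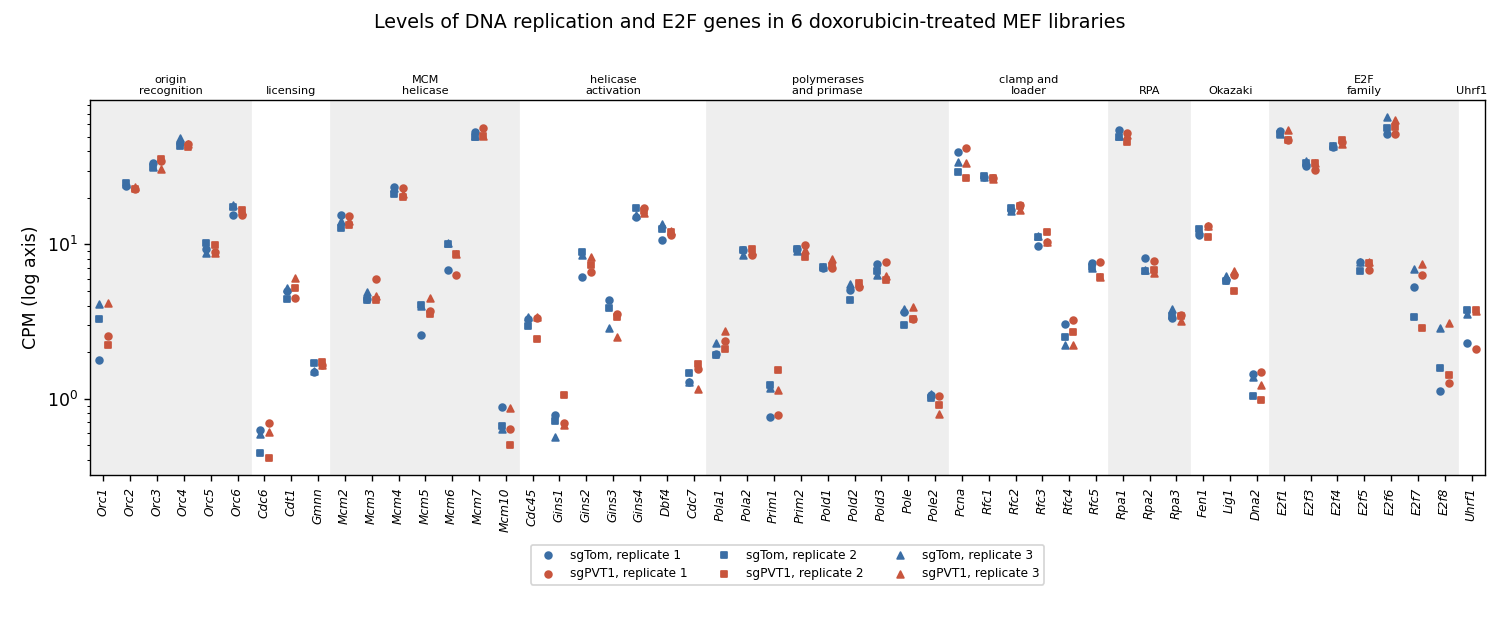
CPM of each measured member (log axis) in the 3 sgTom libraries (blue) and the 3 sgPVT1 libraries (red), with marker shape giving the replicate number and shading separating roles. For most genes the 2 colours fall on each other, while Orc1, Mcm6, Prim1, Pcna, E2f7, E2f8 and Uhrf1, among others, spread by replicate.

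The comparison of guides asked whether RNA of the replication genes differed after damage when the p53 response element of Pvt1 was targeted. No member passed: limma called 0 of 52 at an adjusted p under 0.05, with a background of 0.0% of all tested genes, and 0 of 52 had an unadjusted p under 0.05 (background 0.346%). With replicate number as a block, limma again called 0 (background 0.0346%), and 2 had an unadjusted p under 0.05 (background 6.68%), Mcm6 and E2f4. The quasi-likelihood test of edgeR on recovered reads called 0 (background 0.0%; with 0 unadjusted, background 0.339%), and with the block 0 (background 0.0277%; with 2 unadjusted, background 6.84%). DESeq2 called 0 (background 0.00693%). In the authors' deposited table, the smallest p among the members was 0.4201, for Mcm6, and every false discovery rate was 1.0.

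The differences were small on either side of 0. Of the 52 members, 24 (46.2%) were higher with sgPVT1 and 28 lower, against 49.7% higher over all tested genes. Their median log2 fold change, on log2(CPM + 0.5) and with sgPVT1 over sgTom, was −0.0037, against −0.0004 over all tested genes, and the extremes were −0.20 for Gins3 and 0.18 for Pola1. Within pairs of equal replicate number the members' medians were 0.030, −0.039 and 0.011. Higher values in 3 of 3 pairs were found for 7 members and lower values in 3 of 3 for 10, each against a background of 14.4%. The guide groups did not overlap in 1 member higher with sgPVT1 (E2f4, background 2.15%) and in 2 lower (Orc2 and Rfc1, background 1.47%).

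The intervals bound how large a difference could have gone unseen. For 44 of 52 members the 95% interval of the fold change from limma lay within 1.5-fold in either direction (background 81.9%). With the block this held for 52 of 52 (background 98.6%). The blocked intervals rest on 2 residual degrees of freedom and on the fit with trend. Without trend the blocked fit called 0 of all tested genes, Pvt1 included, and its intervals are not given here. The median standard error was 0.115 on the log2 scale, and 0.0819 with the block. The intervals without a block were widest for E2f7, from −0.87 to 0.96, and E2f8, from −0.85 to 0.92, the members that differed most between replicates.

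**Figure D2:**
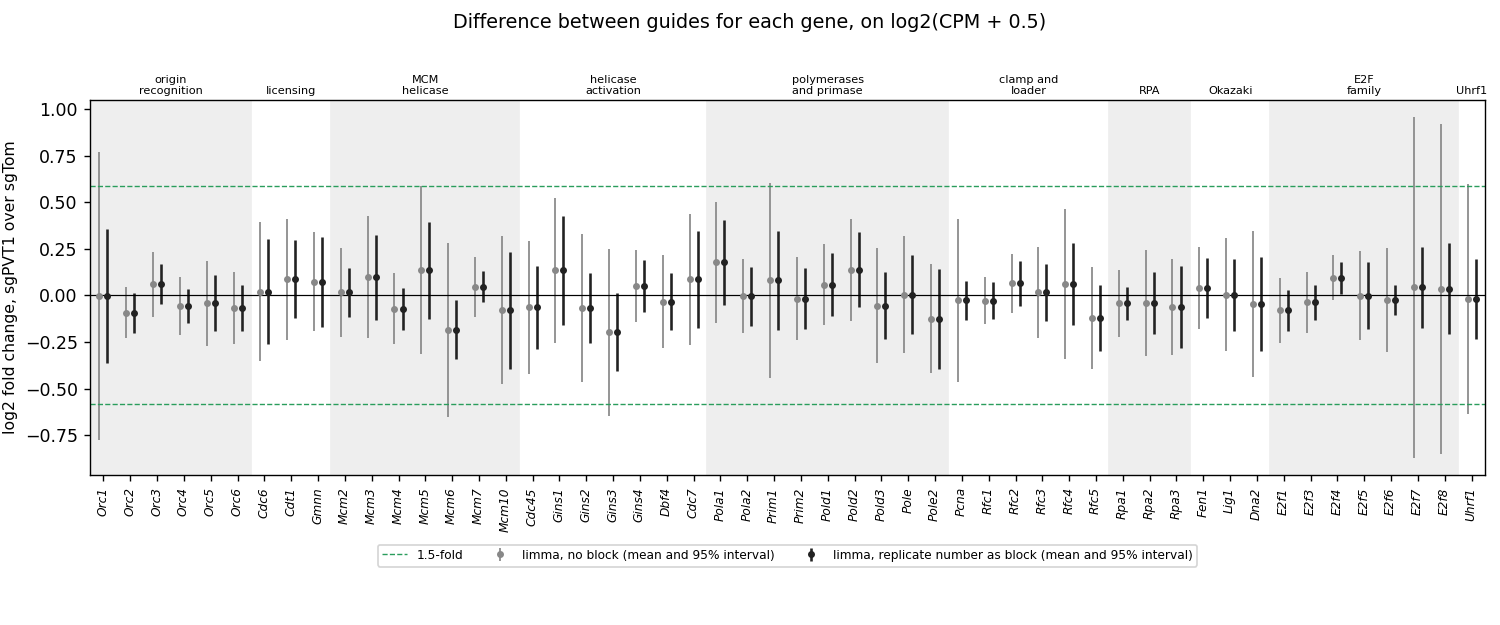
Log2 fold change of each member, sgPVT1 over sgTom, on log2(CPM + 0.5), with its 95% interval from limma without a block (grey) and with replicate number as a block (black), and dashed lines at 1.5-fold. Every blocked interval lies between the dashed lines, and only those of Mcm6 and E2f4 leave out 0.

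Genes of the origin recognition complex, the 6-subunit marker of origins, differed little between guides. Of the 6, 5 were lower with sgPVT1 and 1 higher (background 49.7% higher). None passed, and the median log2 fold change was −0.05. Among the 5, Orc1 lay at −0.0032 (SE 0.321) and was higher with sgPVT1 in 2 of 3 pairs. Orc2 measured 24.0, 25.0 and 24.8 CPM with sgTom and 22.8, 22.7 and 23.6 CPM with sgPVT1. Its 3 sgPVT1 libraries lay below all sgTom libraries, by 0.09 on the log2 scale (SE 0.0569; limma adjusted p = 1.0, blocked 0.748). Of its exonic length, 29.8% overlaps Nif3l1 on the other strand, and the strand setting of the counting is not stated, so reads of the 2 genes may be mixed. Orc4 averaged 46.0 ± 2.83 against 44.2 ± 1.22 CPM (SD, n = 3) and Orc6 16.96 ± 1.22 against 16.2 ± 0.668 CPM, each lower in 3 of 3 pairs. The fold change above 0 was that of Orc3, at 32.3 ± 1.02 against 33.8 ± 2.50 CPM. Per kb of exonic length, Orc6 stood at 6.71 CPM, Orc2 at 6.17, Orc4 at 6.04 and Orc3 at 5.43, levels whose ranges over the libraries overlap from each to the next. Orc5 (1.51 CPM per kb) and Orc1 (0.866 CPM per kb) lay below them in every library. Orc1, the large ATPase subunit, was thus the least abundant RNA of its complex. The ratio of Orc6 to Orc1 per kb ranged from 5.53 to 12.4 over the libraries; scaled to the longest coding transcript instead, Orc3 ranked first, at 14.4 times Orc1.

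Licensing factors included the lowest member. Cdc6, the ATPase that loads the helicase, measured 0.623, 0.444 and 0.592 CPM with sgTom and 0.695, 0.412 and 0.605 CPM with sgPVT1, at most 46 reads in a library. Cdt1, the partner of Cdc6 in loading, measured 4.99, 4.42 and 5.24 against 4.47, 5.21 and 6.02 CPM. Gmnn, the inhibitor of Cdt1, measured 1.49, 1.71 and 1.51 against 1.65, 1.72 and 1.65 CPM. All 3 had a fold change above 0 (0.02, 0.09 and 0.07 on the log2 scale, SE 0.155, 0.135 and 0.110), none passed, and their guide groups overlapped.

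The MCM helicase genes included the member with the smallest p of the blocked fit. Mcm6, a subunit of the Mcm2 to Mcm7 ring (chr1:128331590-128359664, minus strand), measured 6.86, 10.03 and 10.2 CPM with sgTom and 6.30, 8.60 and 8.65 CPM with sgPVT1. Each sgPVT1 library lay below the sgTom library of its number, by 0.11, 0.21 and 0.23 on the log2 scale, while the groups overlapped because both replicate 1 libraries were low. The log2 fold change was −0.18 (SE 0.194, limma adjusted p = 1.0), or with the block the same value with SE 0.0728, unadjusted p = 0.0269 and adjusted p = 0.705. Mcm5 averaged 3.53 ± 0.827 CPM with sgTom and 3.88 ± 0.505 CPM with sgPVT1, a log2 fold change of 0.13 (SE 0.188). Mcm4 averaged 22.7 ± 1.37 against 21.5 ± 1.41 CPM, lower in 3 of 3 pairs, and Mcm7 51.0 ± 1.89 against 52.7 ± 3.41 CPM, higher in 3 of 3. Across Mcm2 to Mcm7 and the scaffold Mcm10, 4 of 7 were higher, 3 lower and none passed.

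Subunits of the MCM ring are present in equal number in the assembled helicase, but their RNAs were not at equal level. Mcm7 stood at 11.7 CPM per kb, followed by Mcm4 at 6.15, Mcm2 at 2.04, Mcm6 at 1.81, Mcm3 at 1.27 and Mcm5 at 0.928. The 12.6-fold ratio of Mcm7 to Mcm5 ranged from 10.3 to 18.6 over the 6 libraries, and the order was the same with the longest coding transcript as length. Ranges of Mcm2 and Mcm6 overlapped, as did those of Mcm6 and Mcm3. Mcm7 hosts the microRNAs Mir93 and Mir25, which cover 2.0% and 1.9% of its exonic length. Mcm10 was at 0.0907 CPM per kb.

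Among the helicase activators, 3 of 7 were higher, 4 lower and none passed. Gins3 measured 4.33, 3.86 and 2.87 CPM with sgTom and 3.54, 3.37 and 2.52 CPM with sgPVT1. It was lower in 3 of 3 pairs, with overlapping groups, and had the lowest fold change of all members, −0.20 on the log2 scale (SE 0.186, limma adjusted p = 1.0, blocked 0.738). Gins1 lay at 0.779, 0.716 and 0.562 against 0.695, 1.06 and 0.674 CPM, at most 59 reads in a library, with sgPVT1 replicate 2 highest. Gins4 averaged 15.95 ± 1.16 against 16.5 ± 0.690 CPM. Cdc45, the helicase cofactor, ranged from 2.44 to 3.38 CPM, the kinase Cdc7 from 1.16 to 1.68 CPM and its activator Dbf4 from 10.6 to 13.5 CPM. The 4 GINS subunits form a complex of 1 copy each and had the widest spread of the complexes by exonic length. Gins4 stood at 12.03 CPM per kb, 24.4 times Gins1 at 0.493. The ratio was 17.4 to 31.1 over the libraries, a range that overlaps that of Mcm7 to Mcm5 (10.3 to 18.6). With the longest coding transcript as length it was 17.5, against 15.97 for Mcm7 to Mcm5 and 14.4 for Orc3 to Orc1. Gins2, at 1.87 CPM per kb, overlaps Gse1 on the other strand over 67.3% of its exonic length, so its reads may be mixed.

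Of the polymerase and primase genes, 5 of 9 were higher, 4 lower and none passed. Pola1, the catalytic subunit of polymerase alpha, measured 1.94, 1.93 and 2.31 CPM with sgTom and 2.36, 2.10 and 2.74 CPM with sgPVT1. It was higher in 3 of 3 pairs and had the largest fold change upward, 0.18 on the log2 scale (SE 0.135, limma adjusted p = 1.0, blocked 0.773), but the groups overlapped. Pold2, a small subunit of polymerase delta, measured 5.09, 4.33 and 5.50 against 5.29, 5.61 and 5.61 CPM, also higher in 3 of 3 pairs (0.14, SE 0.114). Pole2, an accessory subunit of polymerase epsilon, averaged 1.04 ± 0.0314 against 0.918 ± 0.123 CPM and was lower in 3 of 3 pairs (−0.12, SE 0.121). Primase subunits differed in level: Prim2 stood at 1.55 CPM per kb and Prim1 at 0.286, with Pola2 at 1.08 and Pola1 at 0.253. The catalytic subunits Pola1 and Prim1 were thus the lower ones, and their ranges overlapped.

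Pcna and the clamp loader RFC showed 3 of 6 higher and 3 lower, none passing. Pcna, the sliding clamp and also a p53 target (chr2:132249162-132253314, minus strand), measured 39.8, 29.3 and 34.4 CPM with sgTom and 42.0, 26.9 and 33.5 CPM with sgPVT1. The guide groups overlapped, and the means were 34.5 ± 5.21 and 34.2 ± 7.56 CPM (SD, n = 3). The log2 fold change was −0.03 (SE 0.182; limma adjusted p = 1.0), and an exact, 2-sided permutation test gave p = 0.9, where 3 libraries against 3 cannot give less than 0.1. The annotation holds the processed pseudogenes Pcna-ps1 and Pcna-ps2, which may share its reads. Rfc1, the large subunit of the loader, measured 27.1, 27.6 and 27.3 against 26.7, 27.1 and 26.6 CPM. Its groups did not overlap, yet all 6 libraries lay between 26.6 and 27.6 CPM and the log2 fold change was −0.03 (SE 0.0526). Rfc2 averaged 16.8 ± 0.407 against 17.5 ± 0.696 CPM, higher in 3 of 3 pairs, and Rfc5 7.22 ± 0.261 against 6.64 ± 0.888 CPM. Per kb, RFC subunits differed by 3.03-fold, from Rfc1 at 4.50 CPM to Rfc5 at 1.48, and Pcna stood above them at 14.3. With the longest coding transcript as length, RFC subunits differed by 3.96-fold, from Rfc3 to Rfc4.

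For RPA and the Okazaki fragment enzymes the guide groups overlapped in each of 6 genes. All 3 RPA subunits had fold changes below 0, Rpa1 at −0.04 (SE 0.0746), Rpa2 at −0.04 (SE 0.118) and Rpa3 at −0.06 (SE 0.108) on the log2 scale, and none passed. Rpa1, the large DNA-binding subunit, averaged 51.5 ± 3.01 against 50.0 ± 3.38 CPM. Per kb, Rpa1 at 9.09 CPM was 3.81 times Rpa2 at 2.39, or 2.53 times with the longest coding transcript as length. The flap nuclease Fen1 averaged 12.1 ± 0.533 against 12.5 ± 1.08 CPM, DNA ligase Lig1 5.96 ± 0.238 against 6.01 ± 0.882 CPM and the nuclease and helicase Dna2 1.28 ± 0.213 against 1.23 ± 0.248 CPM. Fen1 overlaps the antisense gene Gm10143 over 78.8% of its exonic length, so its reads may be mixed.

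Of the E2F family, 3 of 7 were higher, 4 lower and none passed. E2f4, a repressor-class member that works with the retinoblastoma relatives and DREAM (chr8:105297663-105305370, plus strand), measured 42.9, 43.5 and 43.2 CPM with sgTom and 46.2, 47.2 and 45.1 CPM with sgPVT1. All sgPVT1 libraries lay above all sgTom libraries, by 0.09 on the log2 scale (SE 0.0499, limma unadjusted p = 0.103, adjusted p = 1.0). With the block the limma unadjusted p was 0.0327 and the adjusted p 0.726. E2f1, an activator of S phase genes (chr2:154559407-154569892, minus strand), measured 54.4, 52.2 and 51.9 against 47.7, 47.6 and 54.9 CPM. In replicates 1 and 2 sgPVT1 lay below all sgTom libraries and in replicate 3 above them all, so the groups overlapped (log2 fold change −0.08, SE 0.0723; exact 2-sided permutation p = 0.4). E2f3, also an activator, averaged 33.5 ± 1.28 against 32.7 ± 1.97 CPM, and E2f5, a relative of E2f4, 7.34 ± 0.507 against 7.34 ± 0.499 CPM. Uhrf1, which brings the maintenance methyltransferase to newly copied DNA, averaged 3.19 ± 0.789 against 3.17 ± 0.923 CPM.

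Levels of the E2F factors followed a steep order. Per kb of exonic length E2f4 stood at 18.2 CPM and E2f1 at 16.3, then E2f6 at 10.3, E2f3 at 6.09, E2f5 at 4.12, E2f7 at 0.597 and E2f8 at 0.346. Only E2f7 and E2f8, the atypical repressors, had overlapping ranges among neighbours, from 0.320 to 0.824 and from 0.207 to 0.566 CPM per kb. E2f4 exceeded E2f8 by 52.6-fold, or by 32.5 to 84.6-fold in single libraries. With the longest coding transcript as length, E2f6 ranked first and E2f4 second.

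**Figure D3:**
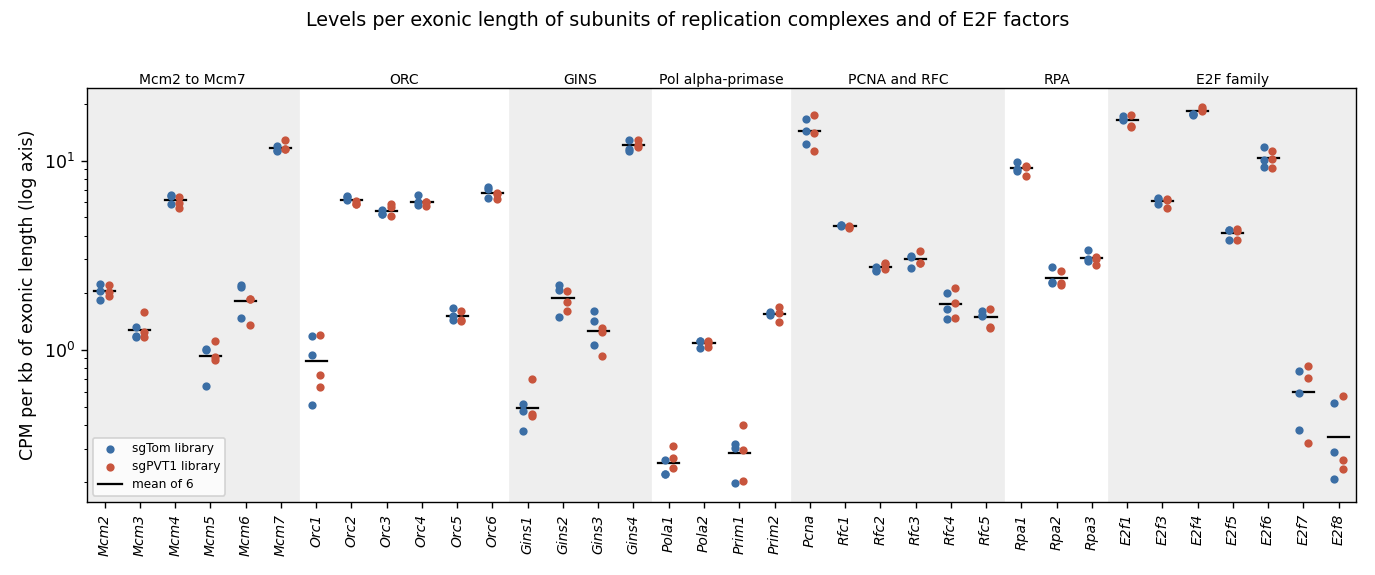
CPM per kb of exonic length (log axis) for subunits of 6 replication complexes and for the E2F factors, with sgTom libraries in blue, sgPVT1 libraries in red and the mean of 6 as a bar. Subunits of one complex are spread over 12.6-fold for the MCM ring, 24.4-fold for GINS and 3.81-fold for RPA. With the longest coding transcript as length these are 15.97-fold, 17.5-fold and 2.53-fold.

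Some replication genes differed between replicate numbers with both guides. A limma F test of replicate number, with the guide in the model, passed in 13 of 52 (25.0%), a smaller share than the 48.6% of all tested genes: Orc1, Mcm2, Mcm6, Gins2, Gins3, Prim1, Pcna, Rfc4, Rpa1, E2f6, E2f7, E2f8 and Uhrf1. With edgeR 12 passed (background 47.7%), without Mcm2. Both guides were highest in replicate 1 for 13 members, in replicate 2 for 7 and in replicate 3 for 14, against backgrounds of 29.3%, 18.7% and 19.3%. Both were lowest there for 12, 13 and 7 members (29.1%, 17.2% and 20.3%). The members' lower levels (median 7.19 against 19.1 CPM) stand beside this share, and their part in it was not tested. The count of members was 8 without sgTom replicate 1, 8 without sgTom replicate 3 and 7 without sgPVT1 replicate 3. It was 6 without the pair of replicate 1 and 8 without that of replicate 3. The share of all tested genes in these smaller fits is not given here, so these counts have no background beside them.

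The atypical E2F repressors differed most. E2f7 (chr10:110745439-110787384, plus strand) measured 5.32, 3.40 and 6.92 CPM with sgTom and 6.35, 2.88 and 7.42 CPM with sgPVT1. Both guides were lowest in replicate 2 and highest in replicate 3, and the replicate means spanned 2.29-fold (limma F test, adjusted p = 5.3e-05). E2f8 (chr7:48866429-48881596, minus strand) measured 1.13, 1.57 and 2.85 against 1.27, 1.42 and 3.08 CPM. Replicate 3 was again highest with both guides, here over replicate 1, by 2.48-fold (adjusted p = 1.79e-04). E2f6, a repressor that works with Polycomb proteins, averaged 52.0 CPM in replicate 1, 57.3 in replicate 2 and 65.3 in replicate 3 (adjusted p = 3.55e-04). E2f1, E2f3, E2f4 and E2f5 did not pass, with replicate ranges of 1.07, 1.10, 1.03 and 1.08-fold.

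Pcna had another order from the E2F repressors. Its replicate means were 40.9, 28.1 and 34.0 CPM, highest in replicate 1 and lowest in replicate 2 with both guides (1.45-fold, limma F test, adjusted p = 6.7e-05). Mcm6 averaged 6.58 CPM in replicate 1 against 9.31 and 9.43 CPM in the others (adjusted p = 0.00109), and Uhrf1 2.19 against 3.74 and 3.60 CPM (adjusted p = 0.00122). Primase subunit Prim1 was likewise lowest in replicate 1, at 0.774 against 1.38 and 1.16 CPM (adjusted p = 0.0212). Orc1 was highest in replicate 3, at 4.14 CPM against 2.16 and 2.74 (adjusted p = 0.0191). Gins2 averaged 6.36, 8.15 and 8.42 CPM and was lowest in replicate 1 with both guides. Its highest value was in replicate 2 with sgTom and in replicate 3 with sgPVT1, and its reads may be mixed with those of Gse1. Gins3 averaged 3.93, 3.61 and 2.69 CPM, highest in replicate 1 and lowest in replicate 3 with both guides. Rfc4, a loader subunit, averaged 3.15, 2.61 and 2.23 CPM, Rpa1 53.7, 47.8 and 50.7 CPM and Mcm2 15.4, 13.0 and 14.2 CPM. The Okazaki fragment enzymes and licensing factors gave no call: Dna2 ranged over 1.44-fold, Lig1 over 1.197-fold, Cdc6 over 1.54-fold and Cdt1 over 1.19-fold, with limma F test adjusted p of 0.105, 0.174, 0.215 and 0.212. Macrophage marker RNA was highest in replicate 1 with both guides (sums above); its part in these differences was not tested.

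**Figure D4:**
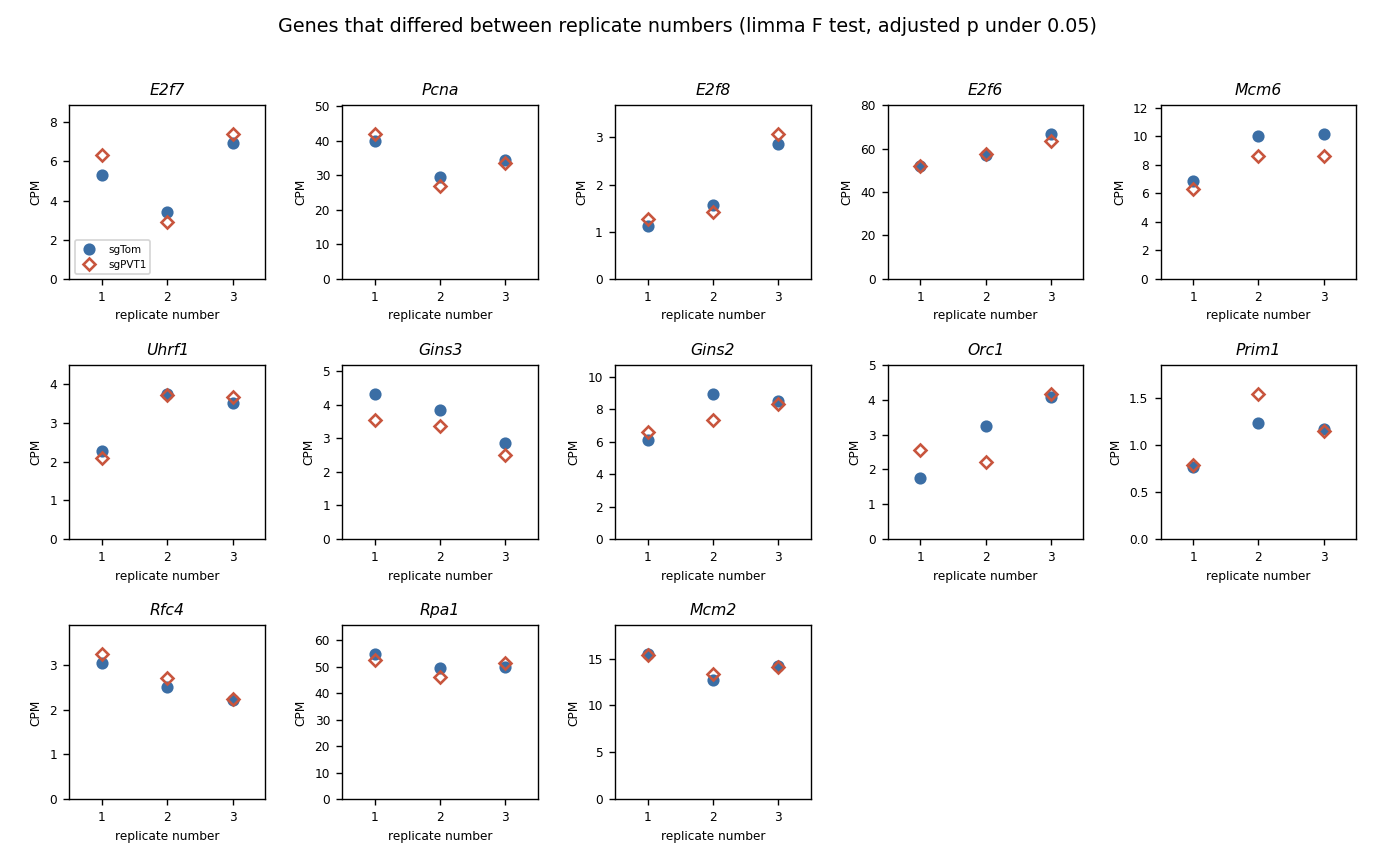
CPM by replicate number for the 13 members that differed between replicate numbers, with sgTom as filled circles and sgPVT1 as open diamonds, each axis starting at 0. The 2 guides follow the same order of replicates for E2f7, Pcna and E2f8, while the replicate that is highest differs between genes.

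Members with and without an E2F word in the promoter were set side by side, leaving out the 10 with no promoter entry and E2f2. Of the 18 with a word, 5 (27.8%) differed between replicate numbers: Orc1, Mcm6, Gins3, E2f7 and Uhrf1. Of the 24 without, 7 (29.2%) did, and both shares lay below the 48.6% of all tested genes. For the guides, 11 of 18 with a word and 7 of 24 without were higher with sgPVT1 (background 49.7%). Their medians were 0.02 and −0.04 on the log2 scale. Of the 7 with the E-box CACGTG, 2 were higher and 5 lower with sgPVT1 (median −0.03). The difference between such classes was not tested, and no gene in them passed for the guide.

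Other genes of replication and S phase entry were also without a call for the guide. Of 34 further fork and chromatin factors, limma called 0, with 0 at an unadjusted p under 0.05, 15 higher and a median of −0.01. With the block it also called 0, with 3 at an unadjusted p under 0.05 (background 6.68%): Hells, Rif1 and Dnmt1, the last named after its value was seen. The chromatin remodeler Hells measured 2.87, 3.80 and 3.58 CPM with sgTom and 3.45, 4.57 and 4.34 CPM with sgPVT1, higher in 3 of 3 pairs (0.24 on the log2 scale, SE 0.153; blocked adjusted p = 0.699). Rif1, which controls origin timing, averaged 9.53 ± 0.955 against 10.6 ± 1.03 CPM, and Pold4, the smallest subunit of polymerase delta, 44.1 ± 1.29 against 42.2 ± 1.15 CPM. Of 12 E2F partners, retinoblastoma and MuvB genes, 0 were called and 4 were higher. With limma 1, Mybl2, had an unadjusted p under 0.05, both without the block (background 0.346%) and with it (background 6.68%). Mybl2, the B-Myb subunit that joins MuvB in cycling cells and is itself an E2F target, measured 1.09, 1.14 and 1.23 against 1.54, 1.61 and 1.47 CPM. Its groups did not overlap (background 2.15%), with a log2 fold change of 0.30 (SE 0.110, limma adjusted p = 1.0, blocked 0.684). Rb1 averaged 64.4 ± 1.61 against 63.0 ± 3.44 CPM and Rbl2, the p130 subunit of DREAM, 68.9 ± 12.1 against 65.0 ± 8.90 CPM. Of 15 E2F targets of S phase entry, again including Mybl2, 0 were called and 7 were higher (median −0.0024). Mybl2 was again the only 1 with a limma unadjusted p under 0.05 (background 0.346%). The checkpoint kinase Chek1 averaged 1.40 ± 0.0879 against 1.69 ± 0.315 CPM, and Rrm2, a ribonucleotide reductase subunit, 114.9 ± 4.47 against 109.8 ± 10.9 CPM.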

How the data were processed

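RNA of 6 doxorubicin-treated MEF libraries was sequenced from a strand-specific polyadenylated RNA kit, per the labels' protocols. The tools named, without roles, are edgeR 3.22.3, HTSeq 0.6.1, StringTie 1.2.4 and TopHat2 2.0.14, with build mm10, per the submitters' processing notes. The deposited values used are CPM per gene, made by the authors with edgeR per the file headers. The authors' log2 fold changes, p-values and false discovery rates come from the same deposited table. Its 6 columns of pseudo-counts were not used, and 2 entries that name no gene (8.06% to 8.94% and 0.543% to 1.58% of reads) were removed. Replicates are biological replicates per the labels.

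Members and lists were chosen with earlier results of these data known. The main test was limma 3.58.1 (R 4.3.3; trend and robust) on log2(CPM + 0.5), with a Benjamini-Hochberg adjustment over 14440 genes and a threshold of 0.05. Deviations from group means correlated at 0.869, 0.739 and 0.817 for equal replicate numbers and at most 0.203 otherwise, across genes, so the numbers pair the libraries, and a fit with replicate number as a block stands beside it. The fits have 4 and 2 residual degrees of freedom. Whole reads were recovered from the CPM steps (100.0% of values within 0.01 reads) for edgeR 4.0.16 quasi-likelihood tests and DESeq2 1.42.0. The limma fits and the blocked edgeR fit were tested on simulated data. Recovery of the changes put in was required of the blocked fits and the replicate test, but not of the main fit without a block. Lengths come from GENCODE M21 and promoters from RefSeq (GRCm38.p6). Members with full statistics are Pcna, E2f1, the 3 smallest p per role for the guide and the 2 widest replicate ranges per role. Other genes named are Pvt1, Myc, Cdkn1a, markers and the 3 smallest p per related list. Alternatives were quantile and median scaling, leaving out the filter or raising it to a mean of 5 CPM, a pseudocount of 1 or 0.1, limma with no trend, the count tests, a threshold of 0.01, the block and each library or pair left out.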

Additional observations from a re-analysis of the deposited data

How the results depend on the processing

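The guide called 0 members under every alternative run, and the fit with a replicate block also gave 0, with 24 higher and a median of −0.0037. Members higher with sgPVT1 numbered 13 of 33 at a mean of at least 5 CPM, where fewer genes are tested, and 19 to 30 with libraries left out singly (19 to 27 for pairs left out under the block). Members that differed between replicate numbers were 7 at a mean of at least 5 CPM and 6 at an adjusted p under 0.01. They were 7 to 17 with libraries left out singly and 6 to 17 with a pair left out. The share of all tested genes under these settings is not given here, and the cause was not tested. Of 597 values for the 29 members given with full statistics, none was called, and 29 changed sign, in 13 members. Depth limits Cdc6, Mcm10 and Gins1 most, with at most 63 reads in a library. In 8 members the interval without the block reached past 1.5-fold in at least 1 direction, which leaves differences of that size unresolved there.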
